A study of Mus musculus with 4 samples.

Results

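Long noncoding RNAs that are abundant in glial cells or linked to neural lineages were examined in RNA-Seq libraries of primary (1°) mouse oligodendroglial cells (OGCs). The list was Neat1, Malat1, Miat, Rmst, Sox2ot, Gas5, Snhg1, Snhg11 and Snhg12, and its genes were found by their symbol. Of these 9 genes, 8 had a row among the 53465 genes listed in the count tables, and all 8 were among the 15766 genes that were abundant enough to be tested. Rmst was not analysed here. The cells came from forebrains of mice at P2-P4 and were differentiated in culture for 3 days, after shake-off from mixed glia and depletion of microglia. The ctrl cells carried Zfp276 flox/flox alleles without Cre, and the Zfp276cko cells were Sox10::Cre tg; Zfp276 flox/flox, so that both genotypes carry the same floxed alleles of Zfp276, which encodes a zinc finger protein. Per the study's methods, a Rosa26 stopflox tdTomato allele was crossed in for the culture mice and the strain background was a mixture of C3H and C57Bl/6J. Cre was driven by Sox10 regulatory sequences, which are active in the oligodendroglial lineage, and the astrocytes, microglia and other cells that such cultures can hold are outside that lineage. Each genotype had 2 libraries, and each library was 1 preparation from 3 mice.

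Long noncoding RNAs are transcripts that act, where a function is known, as RNA and not through a protein. Several of those studied here organise the nucleus: Neat1 is the scaffold of paraspeckles, Malat1 is concentrated in nuclear speckles where splicing factors are stored, and Miat (also known as Gomafu) forms nuclear bodies of its own and binds splicing factors. Gas5, Snhg1, Snhg11 and Snhg12 are small nucleolar RNA (snoRNA) host genes, whose introns release snoRNAs that guide the chemical modification of other RNAs, while the spliced host RNA is often short-lived. Sox2ot is transcribed across the locus of Sox2, a transcription factor of neural progenitors and glia. Malat1, Miat and Neat1 have been linked to the differentiation of neural and oligodendroglial cells.

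Between 21068322 and 26599809 reads per library were counted on genes. The 8 RNAs together took between 0.143% and 0.287% of them. The targeted gene Zfp276 had normalized counts (counts scaled to a common effective library size) of 1648 and 2230 in ctrl, against 490 and 503 in Zfp276cko libraries, and Sox10, the pan-oligodendroglial transcription factor, had 18135 and 20744 against 17805 and 18611. Defining oligodendroglial markers were abundant in all 4 libraries: the 14 myelin and oligodendrocyte markers summed to 380551 and 489760 in ctrl, against 261285 and 267081 in Zfp276cko libraries. The ctrl libraries differed from each other more than the Zfp276cko libraries did. Of 14324 genes with a mean of 20 or more, 12.7% were at least 2-fold apart between ctrl 1 and ctrl 2 and 0.307% between Zfp276cko 1 and Zfp276cko 2.

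Between the genotypes, none of the 8 long noncoding RNAs passed the test. For a call, edgeR's quasi-likelihood test had to give an adjusted p no higher than 0.05, the log2 fold change had to reach 0.6 in either direction, and the normalized counts had to average 20 or more. The count of members called was 0 of 8, beside 0 of 15766 tested genes (0%), and the members' adjusted p in edgeR lay between 0.318 (Snhg1) and 0.980 (Neat1). DESeq2 also called 0 of 8, with 0.143 (Snhg11) as the smallest adjusted p among them, while it called 2.21% of its 15289 tested genes lower and 2.92% higher. Without adjustment, 1 member (Snhg1) had a p of at most 0.05 in edgeR, against 15.6% of all tested genes. In DESeq2 this was 1 member (Snhg11), for which the share over all genes was not computed. No member reached an unadjusted p of at most 0.05 in edgeR together with the thresholds on fold and mean, which 3.02% of tested genes did in the lower and 5.11% in the higher direction. An exact two-sided permutation test of 2 libraries against 2 cannot give a p below 0.333. These cultures hold several cell types, and in bulk RNA fewer cells of a type cannot be told apart from less RNA per cell.

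The log2 fold changes of Zfp276cko against ctrl were above 0 for 5 members and below 0 for 3, with a median of 0.12 beside -0.0013 over all tested genes. Miat, Snhg1, Snhg11 and Snhg12 had both Zfp276cko libraries above both ctrl libraries, a separation seen in 26.8% of all tested genes. No member had both Zfp276cko libraries below both ctrl libraries, which 23.7% of tested genes did. For Neat1, Malat1, Sox2ot and Gas5, both Zfp276cko libraries lay between ctrl 1 and ctrl 2, as they did for 27.7% of tested genes.

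**Figure D1:**
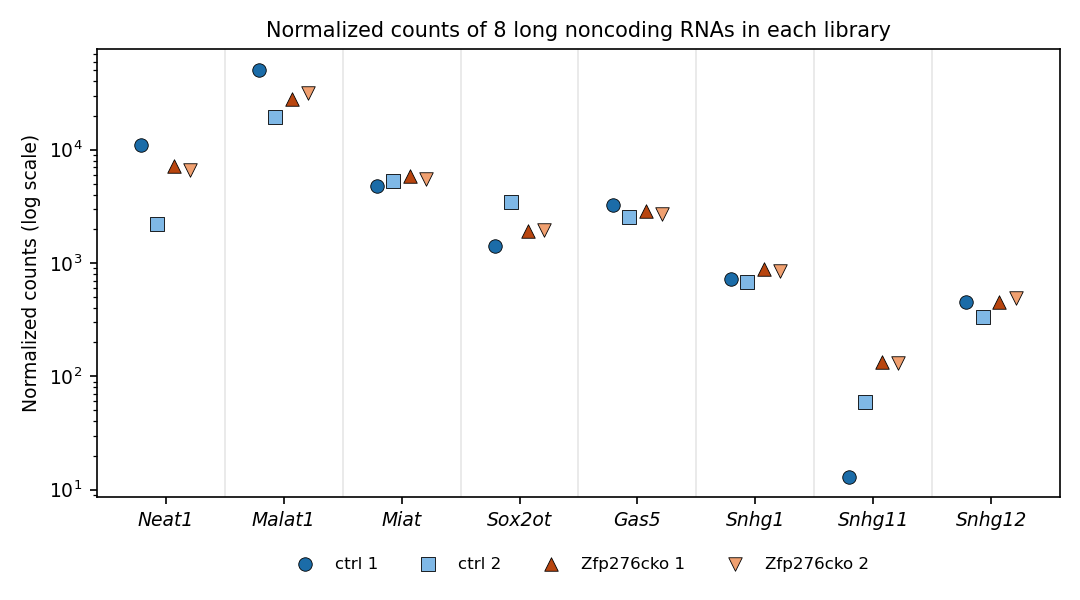
Normalized counts (log scale) of the 8 RNAs in each of the 4 libraries, 1 point per library, circles and squares for ctrl 1 and ctrl 2 and triangles for the Zfp276cko libraries. The triangles of each RNA sit close together, while ctrl 1 and ctrl 2 of Neat1, Malat1, Sox2ot and Snhg11 stand at least 2-fold apart and in different directions.

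Neat1 had 10967 normalized counts in ctrl 1 and 2199 in ctrl 2, and 7128 and 6597 in the Zfp276cko libraries. The ctrl libraries were thus 4.99-fold apart and enclosed the Zfp276cko libraries, which were 1.08-fold apart. The log2 fold change was 0.06 (SE 0.76, edgeR adjusted p = 0.980), and its 95% interval reached from -2.02 to 2.14. Neat1 therefore had no resolved direction: without ctrl 1 the log2 fold change was 1.64, without ctrl 2 it was -0.69, and each of these passed the thresholds under the assumption that the lone ctrl library varies like the Zfp276cko pair. Neat1 lies on the minus strand of chromosome 19 (mm10, chr19:5824708-5845478) and has a short and a long isoform that share their 5′ end. The annotated short isoform has 3004 nt and the long isoform, which builds paraspeckles, has 20771 nt. Counts per gene do not separate them.

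Malat1 had the highest counts of the members, with 50919 normalized counts in ctrl 1 and 19347 in ctrl 2 and 28158 and 31636 in the Zfp276cko libraries. As for Neat1, ctrl 1 was the highest and ctrl 2 the lowest library, here 2.63-fold apart, and the Zfp276cko libraries lay in between. The log2 fold change was -0.23 (SE 0.49, edgeR adjusted p = 0.857). The value was 0.63 without ctrl 1 and -0.78 without ctrl 2, so that the direction turned with the ctrl library that was used, and both values passed the thresholds. Malat1 is a neighbour of Neat1 on the same strand (chr19:5795690-5802672), and its longest annotated transcript is a single exon of 6983 nt.

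Malat1 and the long Neat1 isoform are unusual in how they end. Both are cut at a tRNA-like structure, and the new end is protected by a triple helix of U-rich runs and an A-rich tract in place of an ordinary poly(A) tail, while the libraries were made with a kit for mRNA that selects poly(A). The end regions are shown because they set these RNAs apart from the messages such a kit selects. How evenly the kit captured them was not tested. Each run ends at the letters AAAGCAAAA, searched on the transcript strand, in GENCODE transcripts of mm10 (Malat1 at chr19:5795982-5796100 and Neat1 at chr19:5824708-5824826, both minus strand). Capitals mark the A-rich tract and the runs of at least 3 T, a C or G, and at least 3 T. This is a pattern of letters and no map of the triple helix, and a marked run need not be a strand of it. The T-rich run ttttgctttt, which both sequences hold, has a G and a C between its T and stays in small letters.
Malat1: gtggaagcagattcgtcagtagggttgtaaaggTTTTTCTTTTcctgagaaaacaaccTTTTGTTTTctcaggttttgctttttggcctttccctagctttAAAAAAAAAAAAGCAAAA
Neat1: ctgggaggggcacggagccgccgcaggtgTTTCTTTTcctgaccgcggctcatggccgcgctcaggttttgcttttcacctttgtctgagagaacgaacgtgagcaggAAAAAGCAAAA
The letters AAAGCAAAA occur once in each of these transcripts. They lie in 0.210% of adjoining 119 nt stretches of the longest transcripts of 55450 annotated genes, and together with a T-rich run of this form in 0.00819%. In Malat1, 292 nt of the annotated transcript follow the tract, and in Neat1 the annotated transcript ends there.

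The proteins of the nuclear bodies that contain these RNAs were measured alongside. Of 20 tested paraspeckle proteins, which include the RNA-binding proteins Hnrnpk and Hnrnpa1, edgeR and DESeq2 called 0, and 3 had both Zfp276cko libraries below and 0 above both ctrl libraries. Their median log2 fold change was -0.07, and the lowest value was that of Hnrnpk with -0.27 (edgeR adjusted p = 0.417). In contrast to Neat1, 19 of the 20 had a higher value in ctrl 2 than in ctrl 1. Of 13 tested proteins of nuclear speckles and of Malat1 processing, which include the splicing proteins Son and Srrm2, none was called by either tool, 6 were below and 0 above both ctrl libraries, and the median log2 fold change was -0.11. The lowest value among them was that of Rnps1 (log2 fold change -0.34, edgeR adjusted p = 0.565).

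Sox2ot had 1401 normalized counts in ctrl 1 and 3429 in ctrl 2, and 1901 and 1938 in the Zfp276cko libraries. Its ctrl libraries were 2.45-fold apart in the direction opposite to Neat1 and Malat1, and the Zfp276cko libraries, 1.02-fold apart, lay between them. Its log2 fold change was -0.33 (SE 0.44, edgeR adjusted p = 0.766). Without ctrl 1 it was -0.84 and passed the thresholds, and without ctrl 2 it was 0.44. The annotated gene spans 578350 bp of chromosome 3 on the plus strand (chr3:34104270-34682619) with 18 transcripts and 11594 bp of exons. Sox2, which is encoded in an intron of Sox2ot on the same strand with 0 bp of shared exon, had 7058 and 7839 normalized counts in ctrl, against 6108 and 7566 in Zfp276cko libraries (log2 fold change -0.12, edgeR adjusted p = 0.743). The ctrl libraries of Sox2 were thus close to each other, unlike those of Sox2ot.

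Miat had 4794 and 5329 normalized counts in ctrl, against 5844 and 5554 in Zfp276cko libraries. Both Zfp276cko libraries were above both ctrl libraries, by a log2 fold change of 0.17 (SE 0.11, edgeR adjusted p = 0.509) with a 95% interval from -0.12 to 0.46. The value lay between 0.10 and 0.24 when each library was left out in turn. Miat was among the members with the most even levels: its highest library exceeded its lowest by 1.22-fold. It lies on the minus strand of chromosome 5 (chr5:112213228-112229395). An annotated noncoding RNA of the opposite strand, Gm26953, overlaps 24.3% of its exon sequence and had between 0 and 4 counts per library.

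Miat binds splicing factors, and its best-known feature is a series of copies of TACTAAC, the letters of the branch point of yeast introns, which are recognised by the splicing factor SF1. The longest annotated transcript holds 6 copies on the transcript strand. The stretch of 172 nt with the densest copies (mm10, chr5:112217299-112217470, minus strand) is shown with these letters in capitals.
Miat: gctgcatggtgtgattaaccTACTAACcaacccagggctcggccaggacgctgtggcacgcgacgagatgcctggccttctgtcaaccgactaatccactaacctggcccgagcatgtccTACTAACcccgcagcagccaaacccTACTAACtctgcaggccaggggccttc
Among the longest transcripts of 55450 genes, 4.56% hold TACTAAC at least once and 5 hold at least 3 copies within 300 nt. Of the other members, the long Neat1 transcript holds 1 copy and the remaining transcripts hold 0. Of 4 tested splicing factors that bind Miat, none was called, and none had both Zfp276cko libraries on the same side of both ctrl libraries. Qk, an RNA-binding protein required for myelination, had a log2 fold change of -0.26 (edgeR adjusted p = 0.568), and Srsf1 had -0.0077. Celf3, which is expressed in neurons, had 83.1 normalized counts in ctrl 1 and 706 in ctrl 2, and 420 and 462 in the Zfp276cko libraries (log2 fold change 0.16, SE 0.97).

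The snoRNA host genes differed among themselves in the spread of their ctrl libraries. Gas5 (growth arrest specific 5) had 3242 and 2558 normalized counts in ctrl, against 2888 and 2731 in Zfp276cko libraries, which lay between the ctrl libraries. Its log2 fold change was -0.05 (SE 0.15, edgeR adjusted p = 0.912) with a 95% interval from -0.44 to 0.35. This sign was not stable: it was 0.14 without ctrl 1 and -0.22 without ctrl 2, and 0.06 when counts were scaled to library size alone, a scaling that moved the median of all genes by 0.10.

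Snhg1 had 728 and 684 normalized counts in ctrl, against 880 and 852 in Zfp276cko libraries. Its replicates were close in both genotypes, 1.06-fold and 1.03-fold apart, and the genotypes did not overlap. The log2 fold change of 0.30 (SE 0.11) had an unadjusted p of 0.0488 and an adjusted p of 0.318 in edgeR, and 0.126 and 0.553 in DESeq2, and it was below the threshold of 0.6. Snhg12 had 452 and 332 normalized counts in ctrl, against 457 and 491 in Zfp276cko libraries. The genotypes did not overlap, but ctrl 1 and Zfp276cko 1 were nearly equal and changed places with the size factors of DESeq2. Snhg12 had a log2 fold change of 0.27 (SE 0.20, edgeR adjusted p = 0.572), which was 0.52 without ctrl 1 and 0.05 without ctrl 2.

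Host RNAs of this kind are often translated briefly and then degraded by nonsense-mediated decay, and their transcription often starts on a run of C and T, the 5′ terminal oligopyrimidine sequence that they share with messages of ribosomal proteins. The sequences around the annotated starts in RefSeq (GRCm38.p6, 60 bases of the plus strand with the start as base 31) are shown for Gas5, Snhg1 and Snhg12, because C and T runs at the start are known from such hosts. Capitals mark the longest run of C and T that touches the 10 bases on either side of the start. They lie at chr1:161035136-161035195 for Gas5, at chr19:8723457-8723516 for Snhg1 and at chr4:132308648-132308707 for Snhg12.
Gas5: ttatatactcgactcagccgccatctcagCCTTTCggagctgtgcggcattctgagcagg
Snhg1: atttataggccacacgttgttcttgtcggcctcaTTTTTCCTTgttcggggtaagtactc
Snhg12: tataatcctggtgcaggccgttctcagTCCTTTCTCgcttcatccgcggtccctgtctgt
A run at least as long as the 6 bases of Gas5 is found in 29.97% of 32851 promoters of the table, and one of at least 9 bases, as in Snhg1 and Snhg12, in 9.75%. The run of Snhg1 begins at base 5, counted from the start as base 1, so that its annotated start lies outside the run. A further annotated start of Gas5 and that of Snhg11 have runs of 3 bases, and 83.9% of promoters have a run at least as long. Miat, which is no snoRNA host, has a run of 7 bases (20.2% of promoters).

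In the annotation Gas5 hosts 9 snoRNA loci, Snhg1 8, Snhg12 4 and Snhg11 2. Their own entries had 0 counts in all 4 libraries except for 1 count at a snoRNA of Snhg11, so that the snoRNAs themselves could not be compared. Most hosted snoRNAs of Gas5 and Snhg1 are of the C/D box class, which guides methylation. As an example of what the host carries, Snord47 of Gas5 (chr1:161038082-161038158, plus strand) is given, with the C box letters TGATGA and the D box letters CTGA in capitals.
Snord47: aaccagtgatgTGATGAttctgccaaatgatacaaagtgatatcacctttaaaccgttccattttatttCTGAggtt
Both letter groups in this order occur in 15 of the 25 snoRNA entries of the 4 hosts and in 24.0% of 1507 annotated snoRNAs.

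Snhg11 had the lowest counts of the members and the largest fold change. It had 11 and 53 counts in the ctrl libraries and 149 and 154 in the Zfp276cko libraries, or 13.1, 59.6, 135 and 132 normalized counts. Both Zfp276cko libraries were above both ctrl libraries, while the ctrl libraries themselves were 4.57-fold apart with ctrl 2 higher. The log2 fold change was 1.87 (SE 0.73) with a 95% interval from -0.10 to 3.84. It did not pass the test, with an unadjusted p of 0.0583 and an adjusted p of 0.340 in edgeR. In DESeq2 it had an unadjusted p of 0.0124 and an adjusted p of 0.143. Without ctrl 1 the log2 fold change was 1.16 and without ctrl 2 it was 3.33, so that the size rested on the ctrl library. The sign could not turn here, as both Zfp276cko libraries were above each ctrl library. Snhg11, which is known for its expression in neurons, lies on the plus strand of chromosome 2 (chr2:158375638-158386145) and is entered in the annotation as protein-coding.

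**Figure D2:**
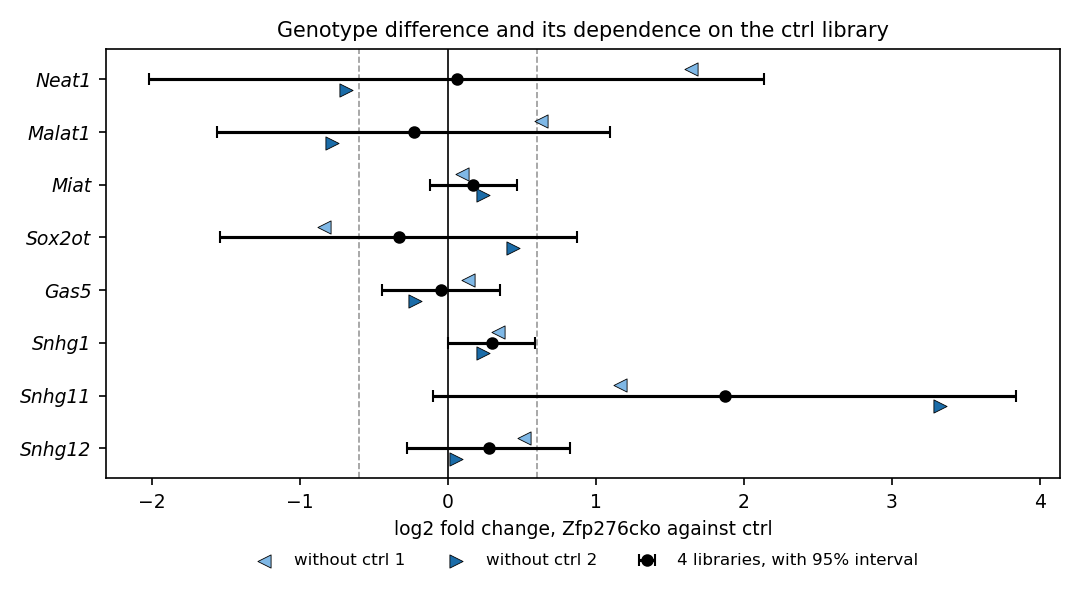
Log2 fold change of Zfp276cko against ctrl for the 8 RNAs with its 95% interval from edgeR (black), and the same value without ctrl 1 (left-pointing) and without ctrl 2 (right-pointing), with dashed lines at -0.6 and 0.6. The pair of leave-one-out values falls on opposite sides of 0 for Neat1, Malat1, Sox2ot and Gas5 and on the same side for Miat, Snhg1, Snhg11 and Snhg12. These sides follow from whether the Zfp276cko libraries lay between the ctrl libraries or above both, and are no separate check.

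Levels of different RNAs were compared per length, as RPKM, which scales reads to the length of annotated exons and to the library size. Malat1 had the highest mean over the 4 libraries, 197 ± 80.7 RPKM (SD, n = 4). Gas5 followed with 32.1 ± 3.28 RPKM and Miat with 24.5 ± 2.02 RPKM, and the libraries of these 3 did not overlap. Neat1 had 13.7 ± 7.31, Snhg1 11.2 ± 1.35, Sox2ot 7.91 ± 3.20 and Snhg12 7.63 ± 1.23 RPKM, with libraries that overlapped between neighbours in the order. Every library of Snhg1 was above every library of Snhg12, and ctrl 1 of Neat1 overlapped with Miat. Snhg11 was lowest in every library, between 0.0648 and 0.669 RPKM. Malat1 was highest in every library, between 117 and 309 RPKM. For genes with many isoforms the length matters: with the longest transcript in place of all annotated exons, Sox2ot had a mean of 26.3 RPKM, above the 24.8 of Miat, and Gas5 had 47.3 RPKM. For Neat1 both lengths are the 20771 nt of the long isoform. Its RPKM would be higher if most reads came from the short isoform of 3004 nt. The counts do not separate these isoforms, so that the place of Neat1 in the order is open. The isoforms of the snoRNA hosts are not separated either. Annotated exons cover the whole spans of Snhg1 (2969 bp) and Snhg12 (2402 bp), and 3760 of 4118 bp of Gas5. The shortest annotated transcripts have 346 nt for Gas5, 312 nt for Snhg1 and 422 nt for Snhg12. The places of these hosts, also relative to Malat1 and Miat, are therefore open too.

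**Figure D3:**
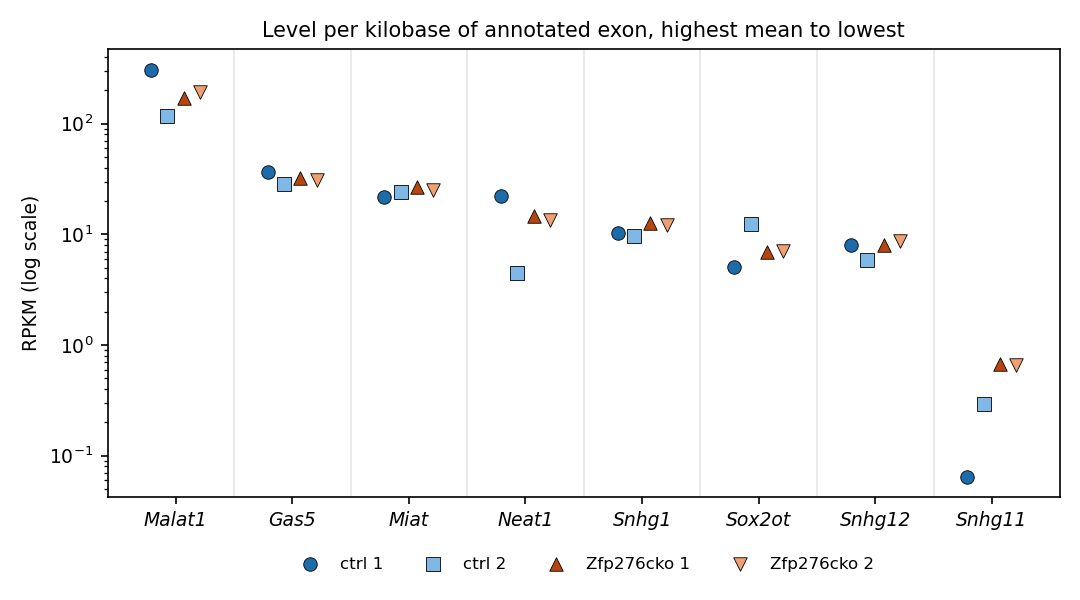
RPKM (log scale) of the 8 RNAs in each library over the union of annotated exons, ordered by the mean over the 4 libraries. Malat1 lies above and Snhg11 below all others in every library, and the values of Neat1 and Sox2ot overlap with those of Snhg1 and of Snhg12.

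The replicates of all 8 RNAs were close in Zfp276cko cells, while in ctrl cells this differed from RNA to RNA. The ratio of the Zfp276cko libraries was at most 1.12-fold for every member, and the median absolute log2 difference between these libraries was 0.0947 over all tested genes. Between the ctrl libraries, 4 of 8 members were at least 2-fold apart, and the median absolute log2 difference over all tested genes was 0.318. On the log2 scale ctrl 1 exceeded ctrl 2 by 2.32 for Neat1 and 1.40 for Malat1, and the difference of ctrl 1 minus ctrl 2 was -1.29 for Sox2ot and -2.19 for Snhg11. The differences of Gas5, Snhg12, Miat and Snhg1 were between -0.15 and 0.45.

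**Figure D4:**
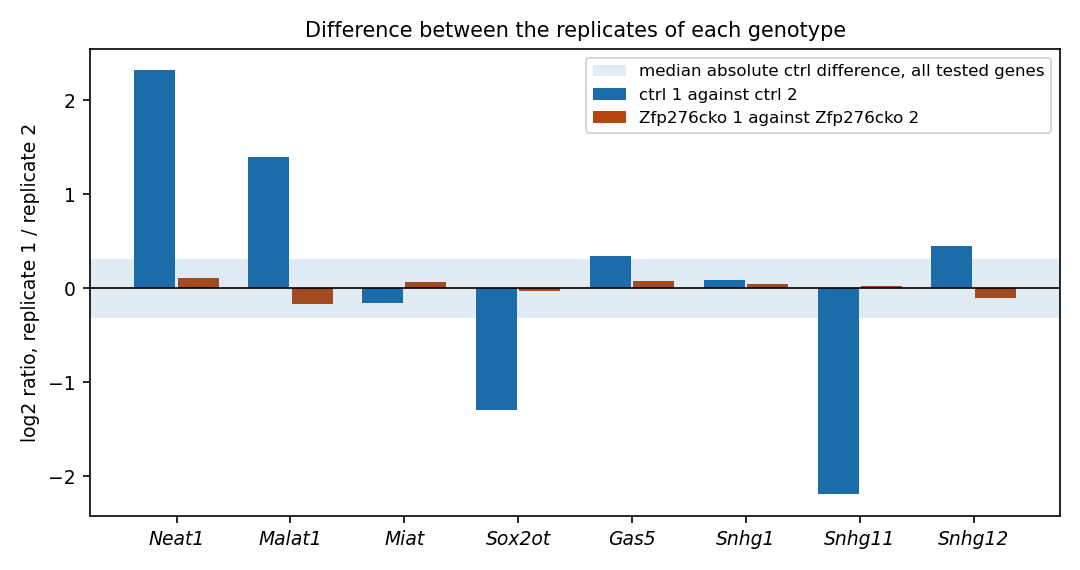
Log2 ratio of replicate 1 to replicate 2 of normalized counts for the 8 RNAs, within ctrl (blue bars) and within Zfp276cko (orange bars), with the median absolute ctrl difference of all tested genes, 0.318, as a band on both sides of 0. The blue bars of Neat1, Malat1, Sox2ot and Snhg11 extend well beyond the band, and every orange bar is inside it.

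Markers of other cell types also differed between the ctrl libraries. All 9 tested fibroblast and vessel markers, such as the collagens Col1a1 and Col1a2, were higher in ctrl 1 than in ctrl 2, and the list summed to 9063 and 568 normalized counts in ctrl, against 503 and 443 in Zfp276cko libraries, with Cldn5 at 0 counts in every library. Of 10 tested microglia markers, which include the complement genes C1qa and C1qb, 8 were higher in ctrl 1, and their sums were 41496 and 20743 in ctrl, against 29705 and 30398 in Zfp276cko libraries. The microglia sums were highest in ctrl 1 and lowest in ctrl 2 with the Zfp276cko libraries in between, as for Neat1 and Malat1. The fibroblast and vessel sums were instead lowest in the Zfp276cko libraries. Of 11 tested neuron markers, 10 were higher in ctrl 2. Their sums were 9268 and 20865 in ctrl, against 15230 and 16110 in Zfp276cko libraries, in the direction of Sox2ot and Snhg11 between the ctrl libraries. Elavl3 and Dcx had the highest counts of this list. Elavl3 had 5483 and 8084 in ctrl, against 4205 and 4343 in Zfp276cko libraries, and Dcx had 2097 and 6014 against 6529 and 7284. Neither lay between the ctrl libraries in Zfp276cko cells, while 7 of the 11 neuron markers did. Of 10 tested astrocyte markers, 6 were higher in ctrl 2, with sums of 48936 and 46032 in ctrl, against 45205 and 42885 in Zfp276cko libraries. Although these sums were close, the median log2 ratio of ctrl 1 to ctrl 2 in the astrocyte list was -0.78, also in the direction of Sox2ot. Of 12 tested markers of oligodendrocyte precursors 6 were higher in each, with sums of 202767 and 155758 in ctrl, against 122381 and 123064 in Zfp276cko libraries. Gpr17 alone held 113405 and 69766 of these in ctrl, against 43296 and 41092 in Zfp276cko libraries, so that the sums mostly follow this gene. Across the list 5 markers were below and 2 above both ctrl libraries, beside 23.7% and 26.8% of all tested genes, and the median log2 fold change was -0.13. Between the genotypes edgeR called none of the markers of these 5 cell types, while DESeq2 called 1 microglia marker and 2 precursor markers higher, and 1 fibroblast and vessel marker and 2 precursor markers lower. The part of these cells in the values of the long noncoding RNAs was not tested.

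**Figure D5:**
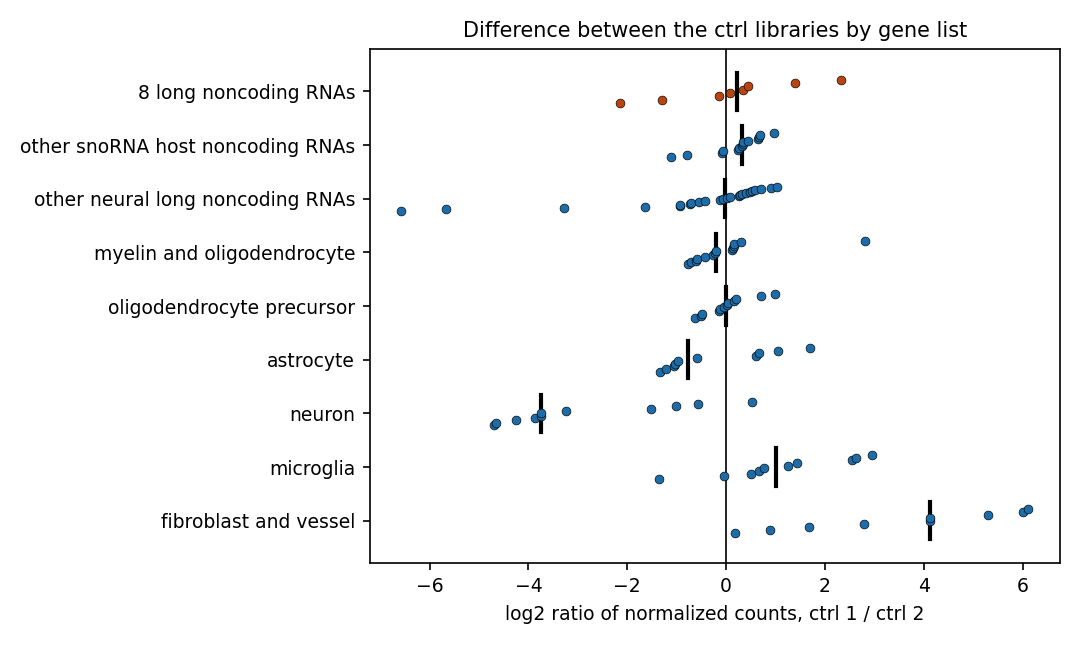
Log2 ratio of normalized counts of ctrl 1 to ctrl 2 for each tested gene of 9 lists (points), with the median of each list as a vertical bar. The fibroblast and vessel markers (median 4.12) and microglia markers (1.01) lie mostly to the right and the neuron markers (-3.74) to the left. The astrocyte markers (-0.78) lie on both sides, and the 8 long noncoding RNAs reach from -2.15 to 2.32. Here 0.5 was added to each normalized count before the ratio was taken.

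Other long noncoding RNAs were set beside the members. Of 14 other snoRNA host RNAs that were tested, edgeR and DESeq2 called 0. Among them 4 were above and 1 was below both ctrl libraries, beside 26.8% and 23.7% of all tested genes, and the median log2 fold change was 0.10. Zfas1, a host of C/D box snoRNAs, had 862 and 684 normalized counts in ctrl, against 1042 and 1072 in Zfp276cko libraries, the separated pattern of Snhg1 (log2 fold change 0.45, unadjusted p = 0.0363 and adjusted p = 0.291 in edgeR). Snhg15 had the highest value of this list with 0.54 (edgeR adjusted p = 0.442) and Snhg8 the lowest with -0.33 (edgeR adjusted p = 0.363).

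Of 24 other tested long noncoding RNAs of neural cells or imprinted clusters, edgeR called 0, and DESeq2 called 1 lower and 0 higher. The gene called by DESeq2 was Mir9-3hg, a microRNA host that had 1415 and 1185 normalized counts in ctrl, against 847 and 884 in Zfp276cko libraries (DESeq2 adjusted p = 0.0464), and it is named after its values were seen. Here 6 were above and 3 below both ctrl libraries, beside 26.8% and 23.7% of all tested genes, and the median of the log2 fold changes was 0.12. Kcnq1ot1, the antisense RNA of an imprinted domain, had 901 and 482 normalized counts in ctrl, against 304 and 378 in Zfp276cko libraries (log2 fold change -1.02, adjusted p = 0.302 in edgeR and 0.0981 in DESeq2), and both Zfp276cko libraries were below both ctrl libraries. Mir155hg, the host of an inflammatory microRNA, had 4.75 and 15.8 against 22.6 and 29.2 normalized counts (log2 fold change 1.32, edgeR adjusted p = 0.405), which like Snhg11 rests on few counts. Tug1, among the most abundant of the list, had a log2 fold change of 0.04. Dlx6os1, an antisense RNA of a homeobox locus of interneurons that was chosen after its values were seen, had 20.2 normalized counts in ctrl 1 and 1050 in ctrl 2, against 657 and 744 in the Zfp276cko libraries, which is a split of the ctrl libraries in the direction of Sox2ot and the neuron markers.

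The machinery around the snoRNA hosts was also measured. Of 8 tested core proteins of snoRNA particles, none was called, 5 were below and 0 above both ctrl libraries, and the median log2 fold change was -0.16. Dkc1, the pseudouridine synthase of the H/ACA particles, had the lowest value with -0.31 (edgeR adjusted p = 0.301), and Gar1 the highest with 0.10. Of 10 tested nonsense-mediated decay factors, none was called, 4 were below and 0 above, and the median was 0.03. The lowest value was that of Upf3a with -0.51 (edgeR adjusted p = 0.215).

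The programmes with large differences in these cells stand beside the members as context. Of 15 tested interferon response genes, 14 had both Zfp276cko libraries above both ctrl libraries, against 26.8% of all tested genes. The median log2 fold change of this list was 3.43. Of 14 myelin and oligodendrocyte markers 11 were below both, against 23.7% of all tested genes, and the median was -0.82. Neither list had a gene called by edgeR, and DESeq2 called 11 higher in the former and 9 lower in the latter. The members' median of 0.12 was small beside these values.

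The genes whose profile over the 4 libraries was most like that of each member were found by the distance between centred log2 normalized counts, among 14323 genes with a mean of at least 20. They were Pck2, Cxcr4 and Ctss for Neat1, and Itga7, Edil3 and Hrh1 for Malat1. Ctss, for example, had 16135 and 3667 normalized counts in ctrl, against 10224 and 10306 in Zfp276cko libraries, which is the order of Neat1. Dct, Zbtb16 and Rassf10 were nearest to Sox2ot, Commd7, Fbxo25 and Slc11a2 to Miat, and Nudt22, Scrn1 and Limd1 to Gas5. Ppm1f, Ttc39b and Mrgbp were nearest to Snhg1, and Dzip3, Acer3 and Dram2 to Snhg12. For Snhg11 they were Gbp5, Smc1b and E330013P04Rik. Gbp5 had 29.7 and 142 normalized counts in ctrl, against 320 and 324 in Zfp276cko libraries. Among the members themselves, Miat and Snhg1 had the most similar profiles (distance 0.21) and Neat1 and Snhg11 the least similar (3.61). With 4 libraries such likeness is a description.

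Protein-coding neighbours were compared with the members beside them. Frmd8, 4223 bp from Neat1 on chromosome 19, had a log2 difference of ctrl 1 minus ctrl 2 of -0.01, beside 2.32 for Neat1 and 1.40 for Malat1. Its Zfp276cko libraries were below both ctrl libraries, with a log2 fold change of -0.22 (edgeR adjusted p = 0.388). Ralgapb, on the far side of Snhg11, had 3611 and 3514 normalized counts in ctrl, against 2977 and 3056 in Zfp276cko libraries (log2 fold change -0.24, edgeR adjusted p = 0.314), the opposite direction to Snhg11. Lbp, on its other side at 42785 bp, had 26.1 and 61.9 against 87.8 and 66.2 normalized counts (log2 fold change 0.80, edgeR adjusted p = 0.506), with Zfp276cko libraries above both ctrl libraries as for Snhg11.

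Slc3a2, an amino acid transporter subunit that starts 105 bp from Snhg1 on the opposite strand, had 7165 and 4065 normalized counts in ctrl, against 6495 and 6412 in Zfp276cko libraries. Unlike Snhg1, its genotypes overlapped (log2 fold change 0.20, edgeR adjusted p = 0.787). Trnau1ap, 738 bp from Snhg12 on the opposite strand, had a log2 fold change of -0.06. None of these neighbours was called.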

How the data were processed

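RNA-Seq libraries were stranded mRNA libraries read from a single end. Reads were mapped by the authors with STAR 2.5.4a to the mm10 genome, and the deposited values are raw counts for each gene symbol, between 21068322 and 26599809 per library. Per the study's methods reads were counted with HTSeq on Ensembl genes, while the submitters' processing notes name featureCounts 1.5.1. The strand setting is not given in the sources used here. Counts of 4 libraries were filtered with filterByExpr, normalized with TMM and tested with edgeR 4.0.16 (R 4.3.3, quasi-likelihood, genotype only, Benjamini-Hochberg over all 15766 tested genes). DESeq2 1.42.0, other scalings and filters, the likelihood ratio test, a replicate block and leaving out each library were alternatives. The fit was run on simulated counts with the same spread for all genes and both genotypes. It was thus not tested on ctrl libraries that differ more than the Zfp276cko libraries, as they do here. Members and gene lists were chosen with earlier results of these data known. Named genes were the members, the extremes and most abundant of each list, the 3 nearest profiles and the neighbours, of which some are not reported here. Replicates are preparations from 3 mice each, and 2 per genotype limit the precision. Coordinates, lengths and transcripts came from GENCODE M21, promoters from RefSeq.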

Additional observations from a re-analysis of the deposited data

How the results depend on the processing

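The count of 0 called members held under every scaling, filter and test that was tried, and under the replicate block, which called 0 members and 0 of all genes and changed no call. Libraries of the same number did not deviate together (correlation 0.0067 over 14324 genes). Whether they were prepared together is not stated, and this correlation cannot show it. Without single libraries, between 0 and 4 members and between 0 and 3078 genes were called. Without ctrl replicate 1 these were 4 and 2641 and without ctrl replicate 2 3 and 3078, where the lone ctrl library is assumed to vary like the Zfp276cko pair. Of all genes, 1 was called with library size alone, 8 without a filter on low counts, 785 by DESeq2 and 696 by edgeR's likelihood ratio test. The cause was not tested. The log2 fold change of Gas5 turned to 0.059 with library size alone, which shifted the median of all genes by 0.10. When single libraries were left out the values reached from -0.69 to 1.64 for Neat1, from -0.78 to 0.63 for Malat1, from -0.84 to 0.44 for Sox2ot, from -0.22 to 0.14 for Gas5, from 0.05 to 0.52 for Snhg12 and from 1.16 to 3.33 for Snhg11. Of the 4 members whose genotypes did not overlap, 3 remained with the size factors of DESeq2. With the longest transcript as length, mean RPKM became 47.3 for Gas5, 12.2 for Snhg1, 26.3 for Sox2ot, 11.9 for Snhg12 and 0.613 for Snhg11. Few libraries, and for Snhg11 few counts, limit all of these values.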
